A study of Bos taurus with 26 samples.

Results

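In the corpus luteum of Holstein cows, 30 gene IDs were expressed at a higher level in every library of a low-fertility line (Fert-) than in any library of a high-fertility line (Fert+). They were chosen from 24616 gene IDs by their values. The level v was log2(CPM + 1), where CPM is the read count per 1000000 counts of the library. An ID was eligible when its mean over the 12 corpus luteum libraries was at least 5 CPM and less than 20 times its endometrial mean, which left 10568 IDs. An eligible ID became a member when its lowest v in Fert- lay above its highest v in Fert+, and the distance between these 2 values is called the gap. Up to 100 members would have been kept, and 30 met the rule. The line difference in corpus luteum chose the members, so its values are given as a description without a test.

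The corpus luteum forms from the ovulated follicle and secretes progesterone, which prepares the endometrium, the lining of the uterus, to receive an embryo. In a cycle without pregnancy, prostaglandin from the uterus ends this secretion and the gland regresses. The gland holds steroid-secreting luteal cells together with endothelial cells, pericytes, fibroblasts and immune cells. In bulk tissue, a change in the number of cells of a type and a change in the RNA per cell cannot be told apart. The files give Ensembl gene IDs and do not pair them with gene symbols, and 0 of the 24616 IDs matched the cattle gene table used here. The members therefore carry no gene name, function or position below, no sequence is shown, and the tissue labels were not checked against marker genes. Members are called by the rank of their gap, and 5 of them also by their ID.

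All libraries were of day 13 of the oestrous cycle, from polyadenylated RNA of biopsies without a stated treatment. The corpus luteum gave 7 Fert+ libraries (replicates 15, 16, 18, 19, 21, 23 and 24) and 5 Fert- libraries (replicates 17, 20, 25, 27 and 28). The endometrium, a biopsy of the ipsilateral uterine horn, gave 8 Fert+ and 6 Fert- libraries, which the choice of members used only through their overall mean. The labels give each library a batch from 1 to 4, without saying what the batch was, and the parity of the cow. Nothing in them says that the libraries are of different animals, so a p-value covers the spread among these libraries, which may be partly technical.

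Library totals ran from 9627378 to 18008417 counts. Fert+ replicates 15, 16, 18 and 19 stood apart from the other corpus luteum libraries, with scores of 47.7 to 51.6 on principal component 1, which held 39.4% of the variance, while the other 8 libraries scored from -45.9 to -8.19. In these 4 libraries 17014 to 17325 IDs had a count, against 15935 to 16609 in the other 8. On that component Fert- replicates 28 and 17 were lowest, at -45.9 and -44.0. Fert+ replicate 23, at -22.9, lay among Fert- replicates 25, 20 and 27, at -27.8, -21.5 and -19.6. Fert+ replicates 24 and 21 were at -8.47 and -8.19. The scaling factors by trimmed mean of M values (TMM), which correct totals for the make-up of a library, ran from 0.784 to 0.890 in the Fert- and from 0.872 to 1.00 in the Fert+ corpus luteum. These factors were computed over all 26 libraries of both tissues together.

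The 30 members were 0.284% of the eligible IDs. The opposite pattern, with every Fert+ library above every Fert- library, was held by 289 eligible IDs (2.73%), so 9.40% of the IDs with lines that did not overlap were higher in Fert-. With TMM scaling this split turned. There, 204 of 10792 eligible IDs (1.89%) were higher in every Fert- library and 75 (0.695%) in every Fert+ library, which made 73.1% of the separated IDs higher in Fert-. The median difference of all eligible IDs, Fert- minus Fert+, was -0.19 on the log2 scale with plain totals and -0.00011 with TMM, a shift of 0.19. Of the 30 members, 26 were still separated with TMM scaling. The other 4, ranked 25, 26, 29 and 30, then overlapped by at most 0.012 on the log2 scale. The line difference of the members, Fert- minus Fert+, had a median of 0.51 with plain totals and 0.71 with TMM.

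The number of members also rested on single libraries. Without Fert+ replicate 23 there were 279 IDs higher in every Fert- library, and without Fert- replicates 27, 25, 28 or 20 there were 84, 68, 67 and 63. Leaving out Fert+ replicate 24 gave 54. Leaving out any of the other 6 libraries gave 31 to 42. The opposite pattern, held by 289 IDs with all libraries, rose as well, to between 292 and 1094. It numbered 1032 without Fert+ replicate 23 and 1094 without Fert- replicate 20. With 1 library left out, IDs higher in Fert- made up 5.45% to 21.3% of the separated IDs. Without the 4 libraries apart, 63 IDs met the rule, and all 30 members were among them, while 391 IDs held the opposite pattern. A library left out can only widen a gap, so the members stayed separated in each of these settings, but 2 of them fell under 5 CPM without Fert- replicate 28: the members ranked 1 and 11, at a mean of 3.21 and 4.83 CPM. In Fert+ alone, the members ranked 1, 2, 8 and 11 had means of 1.83, 4.81, 4.66 and 3.92 CPM. They therefore passed the limit of 5 CPM only through their Fert- values.

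**Figure D1:**
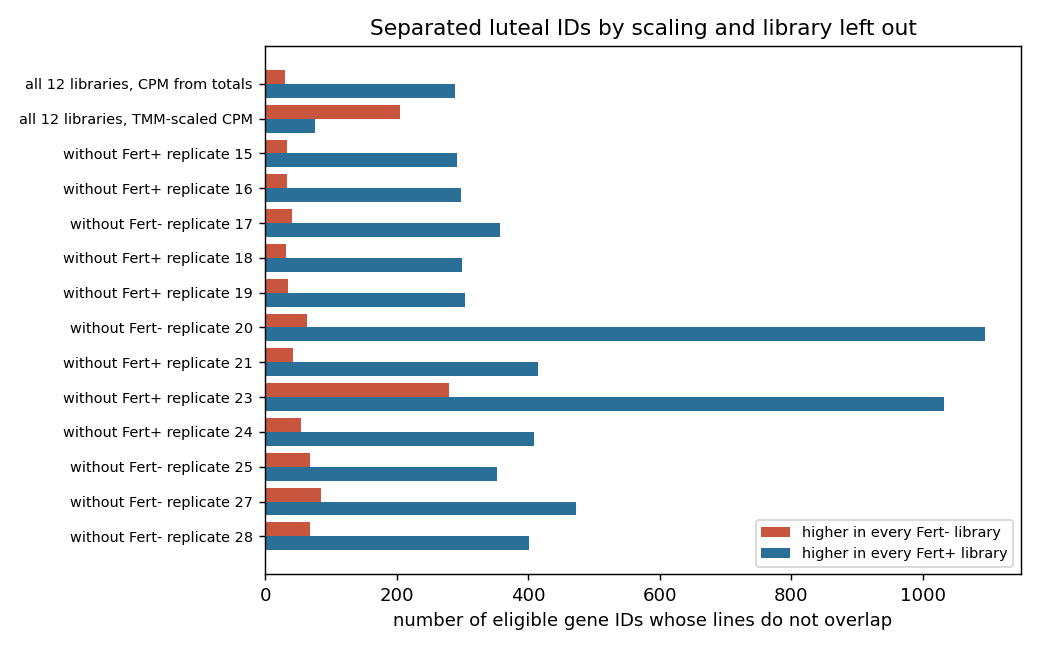
Number of eligible gene IDs (x axis) whose corpus luteum values did not overlap between the lines, higher in every Fert- library (red) or in every Fert+ library (blue), for both ways of scaling and with each library left out in turn. With all libraries the red bar is 30 with plain totals and 204 with TMM scaling, and leaving out Fert+ replicate 23 raises it to 279. The blue bar is 289 with plain totals, 75 with TMM scaling and 1032 without Fert+ replicate 23.

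Most gaps were narrow. The gap ran from 0.0043 to 0.59 on the log2 scale with a median of 0.046, and it was under 0.05 in 16 members and above 0.1 in 9. The member just inside the threshold was at 611 CPM in Fert- replicate 20, its lowest Fert- library, and at 609 CPM in Fert+ replicate 23, its highest Fert+ library. The ID just outside was at 103.1 CPM in its lowest Fert- library, replicate 25, and at 103.2 CPM in Fert+ replicate 23. Within 0.05 below the threshold lay 51 further eligible IDs, more than the members themselves.

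The members covered the range from low to very high expression. Their mean in corpus luteum ran from 5.35 to 7506 CPM with a median of 37.2 CPM, where the median of all eligible IDs was 27.2 CPM. Of the members, 6 lay under 10 CPM, 12 between 10 and 50 CPM, 9 between 50 and 200 CPM and 3 above 200 CPM. The lowest count of a member in any corpus luteum library was 19 reads. Together the members made up 0.806% ± 0.156 (SD, n = 7) of all Fert+ counts. Of the Fert- counts they made up 1.27% ± 0.218 (SD, n = 5). Most of this came from the most abundant member, ranked 15: without it the shares were 0.203% ± 0.0234 (SD, n = 7) and 0.315% ± 0.0829 (SD, n = 5). That member was at 4505 to 7865 CPM in Fert+, with a median of 5683, and at 8598, 9382, 9877, 8129 and 11909 CPM in Fert- replicates 17, 20, 25, 27 and 28. Its Fert+ values reached close to the lowest Fert- library, replicate 27.

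The largest gap belonged to ENSBTAG00000011734. It was at 1.5001 to 2.43 CPM in the 7 Fert+ libraries, with a median of 1.83, and at 4.94, 4.18, 8.26, 5.16 and 70.7 CPM in Fert- replicates 17, 20, 25, 27 and 28. Replicate 28 stood far above the other Fert- libraries, which were themselves clear of all Fert+ libraries. The Fert+ mean was 1.83 CPM ± 0.315 (SD, n = 7). The Fert- mean was 18.6 CPM ± 29.1 (SD, n = 5), 10.2 times the Fert+ mean, and 3.08 times without replicate 28. Without that replicate the Fert- mean was 5.63 CPM ± 1.80 (SD, n = 4).

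ENSBTAG00000027610 had the next largest gap and no single library that set it. Its Fert+ libraries lay between 4.36 and 5.22 CPM, with a median of 4.66, and its Fert- replicates 17, 20, 25, 27 and 28 were at 12.7, 6.69, 6.46, 7.58 and 9.56 CPM. The spread was narrow in Fert+ (4.81 CPM ± 0.344, SD, n = 7) and wider in Fert- (8.60 CPM ± 2.60, SD, n = 5), where replicate 17 was highest. The ratio of the means was 1.79, and 1.74 without replicate 28.

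The third gap was that of ENSBTAG00000008683, at 33.8 to 72.4 CPM in Fert+, with a median of 44.8, and at 134.5, 94.4, 83.8, 83.4 and 131.6 CPM in Fert- replicates 17, 20, 25, 27 and 28. Its mean over the Fert+ libraries was 49.7 CPM ± 14.02 (SD, n = 7), and over the Fert- libraries 106 CPM ± 25.5 (SD, n = 5). The 4 Fert+ libraries apart were its lowest, at 33.8 to 44.8 CPM, and replicates 21, 23 and 24 lay between them and the Fert- libraries.

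The member with the fourth gap was dominated by one library. It was at 8.51 to 21.1 CPM in Fert+, with a median of 13.0, and at 31.3, 33.7, 41.6, 23.8 and 1538 CPM in Fert- replicates 17, 20, 25, 27 and 28. Replicate 28 was far above every other corpus luteum library. The mean was 14.2 CPM ± 4.40 (SD, n = 7) in Fert+, and in Fert- it was 334 CPM ± 673 (SD, n = 5) with replicate 28 and 32.6 CPM ± 7.33 (SD, n = 4) without it. The ratio of the means went from 23.6 to 2.301.

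ENSBTAG00000038139, ranked 6, was at 16.03 to 25.1 CPM in Fert+, with a median of 22.0, and at 28.6, 31.8, 28.1, 30.6 and 38.3 CPM in Fert- replicates 17, 20, 25, 27 and 28. ENSBTAG00000012186, ranked 9, was at 6.33 to 11.2 CPM in Fert+, with a median of 8.63, and at 16.5, 16.004, 12.1, 14.1 and 16.8 CPM in the same Fert- libraries. For the member ranked 9, the Fert- libraries lay close together and none stood far from the rest. For the member ranked 6, replicate 28 lay above the other Fert- libraries. Its Fert- SD was 4.09 CPM with that replicate and 1.71 CPM without it. The ratio of the means was 1.48 for the member ranked 6 and 1.76 for the member ranked 9, and 1.40 and 1.71 without replicate 28.

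Among all 30 members the difference of the mean log2(CPM + 1), Fert- minus Fert+, ran from 0.24 to 2.28. It was above 1 in 3 members, those ranked 1, 3 and 4, and under 0.5 in 13. The 2 largest differences, 2.28 and 1.89, were those of the members ranked 4 and 1, in both of which replicate 28 was far above the rest.

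**Figure D2:**
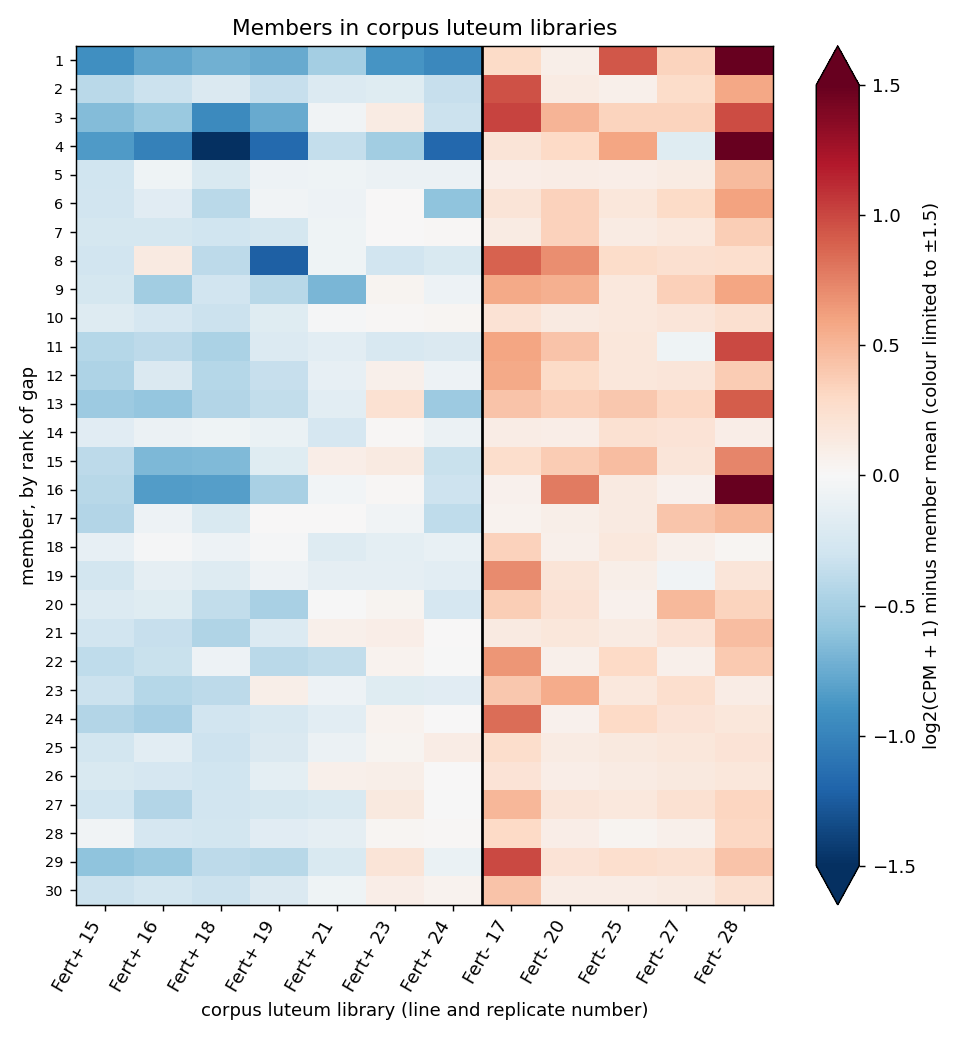
Each row is 1 of the 30 members, ordered by gap, each column a corpus luteum library, and the colour is log2(CPM + 1) minus the mean of the member, with the colour limited to ±1.5. Every member is higher right of the line (Fert-) by the rule that chose it. Within Fert+ the left columns (15, 16, 18 and 19) are the bluest for most members, replicate 23 is close to the Fert- side, and within Fert- replicates 17 and 28 are darkest.

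The members did not have 1 level per line. Fert+ replicate 23 was the highest Fert+ library for 18 of the 30 members, where it was highest for 16.1% of all eligible IDs, and it therefore set the threshold for most of them. On principal component 1 of the corpus luteum it also lay among the Fert- libraries, so its place is not particular to the members. The lowest Fert+ library was replicate 15, 16, 18 or 19 for 25 members, beside 39.3% of eligible IDs. Replicates 21, 23 and 24 were higher than these 4 in the mean of 28 members, beside 38.6% of eligible IDs. The median difference was 0.25 on the log2 scale over the members and -0.10 over the eligible IDs. These 3 libraries lay above all 4 in 12 members, where 8.63% of eligible IDs showed that. Both Fert+ subgroups lie below Fert- by the rule, and the median difference of the members, Fert- minus Fert+, was 0.60 against the 4 libraries apart and 0.37 against replicates 21, 23 and 24. These subgroups were defined from the data, so no test is given. The rule also used these values of the members, so the shares of members and of eligible IDs are not alike. Nothing is read from the distance between them. The number of IDs with a count, the TMM factor and principal component 1 moved with this split, and their part in it was not tested. Batch and parity were tied to the split as well, and their part was not tested either. The 4 libraries apart held all Fert+ corpus luteum libraries of batch 4 and of parity 3. Replicates 21 and 24 were all those of batch 1 and of parity 2.

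Within Fert-, replicates 28 and 17 led. They were also the lowest on principal component 1, and its part in their lead was not tested. The rule used the Fert- values of the members too, so their shares and those of eligible IDs are not alike here. Nothing is read from the distance between these shares. Replicate 28 was highest for 14 members and replicate 17 for 13, where they were highest among the Fert- libraries for 22.1% and 22.5% of eligible IDs. Their mean was above that of the other 3 Fert- libraries in 28 of 30 members, beside 44.7% of eligible IDs, with a median difference of 0.22 over the members and -0.04 over the eligible IDs. Replicate 20 was highest for 1 member, where it was highest for 35.2% of eligible IDs. The lowest Fert- library was replicate 27 for 9 members, replicate 25 for 8 and replicate 20 for 7, beside 17.4%, 20.2% and 6.93% of eligible IDs. The median of the members, each taken relative to its own corpus luteum mean, was 0.39 in replicate 28 and 0.36 in replicate 17, and 0.16 to 0.19 in replicates 20, 25 and 27. In Fert+ it ran from -0.33 in replicate 18 to 0.03 in replicate 23. The same median over all eligible IDs went the other way, from -0.18 to 0.02 in Fert- and from -0.02 to 0.18 in Fert+.

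**Figure D3:**
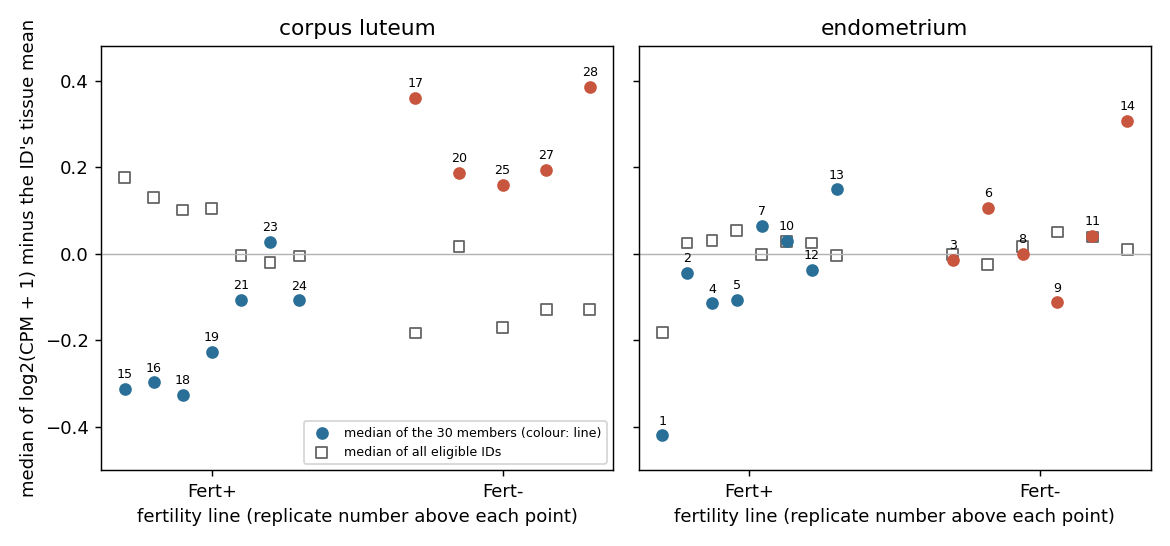
Median over the 30 members (filled points, blue Fert+ and red Fert-) and over the 10568 eligible IDs (open squares) of log2(CPM + 1) minus the mean of the ID in that tissue, for each library, with replicate numbers above the points. In corpus luteum the filled points of Fert- lie at 0.16 to 0.39, above all Fert+ points, as the choice of members requires, while the squares of 4 Fert- libraries lie lowest. In endometrium the lines overlap, with Fert+ replicate 1 lowest at -0.42 and Fert- replicate 14 highest at 0.31. The square of Fert+ replicate 1 is also the lowest there, at -0.18.

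The rule fixes the sign of the line difference of every member in every batch and at every parity, and a size of at least the gap, so the values by batch and parity are a description and support nothing. The median over the members, Fert- minus Fert+, was 0.43 in batch 1 (2 libraries of each line), 0.71 in batch 2 (1 of each) and 0.34 in batch 3 (2 of each). Batch 4 held Fert+ libraries alone. Parity was 2 for the Fert+ pair of batch 1 and 4 for its Fert- pair, so line and parity cannot be told apart there. In batch 2 both libraries were of parity 4, and the members differed by 0.05 to 2.10. The parity 3 libraries of batch 3 (2 Fert- and 1 Fert+) differed by a median of 0.45. Over all batches the median difference was 0.46 at parity 4 (3 Fert- and 2 Fert+) and 0.52 at parity 3 (2 Fert- and 3 Fert+). The 3 Fert+ libraries of parity 3 were replicates 15, 16 and 18, all among the 4 libraries apart.

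With plain totals, the members were neither mainly luteal nor mainly endometrial. Their mean was higher in corpus luteum for 15 and higher in endometrium for 15, whereas 64.6% of eligible IDs were higher in endometrium. TMM factors were 0.784 to 1.00 in corpus luteum and 1.01 to 1.16 in endometrium, so plain totals favour endometrium for members and eligible IDs alike. The rule also chose members for high Fert- values in corpus luteum, which can raise their luteal mean, so the 2 shares are not alike. ENSBTAG00000011734 was the member with the largest tissue ratio, 13.2 (8.84 CPM in corpus luteum and 0.671 CPM in endometrium). The most endometrial member, ranked 12, was 2.42 times higher there (104 and 251 CPM). A ratio above 2 in favour of corpus luteum was found in 6 members, and in favour of endometrium in 2. The rule limits this ratio, so no test is given.

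The endometrium asked whether the same IDs also differed between the lines in libraries whose line the rule had not used. The labels do not tie the tissues to cows. For all 12 corpus luteum libraries an endometrium library matched in line, in batch and in parity, and in 9 cases a match was numbered lower by 14, so both tissues may hold the same animals, and the endometrium may then not be a separate set of cows. All 30 members passed the filter on low counts there. In edgeR's quasi-likelihood test with batch in the model, 0 of 30 members passed an adjusted p of 0.05 (lowest adjusted p 0.981), and neither did any of the 14243 tested IDs (0%). DESeq2 called 0 members and 10 of the 19210 IDs to which it gave an adjusted p (0.0521%). limma with voom called 0 members and 0 IDs. At an unadjusted p under 0.05, 2 members were higher in Fert-, where 1.36% of all tested IDs were, and 0 were lower, where 1.65% were. The fold change was above 0, higher in Fert-, for 22 of the 30 members (73.3%), beside 49.5% of all tested IDs. Its median was 0.07 over the members with a median standard error (SE) of 0.15, and -0.00 over all tested IDs, so that the typical member differed by less than its error. The members share libraries and are not independent of each other. In no member did the lines separate in endometrium: 0 of 30 were higher in every Fert- library, where 0.00946% of eligible IDs were.

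The direction was given by batch in the endometrium as well. Both libraries of batch 2 were of parity 4. In batches 1, 3 and 4 the lines were not matched in parity, so the values there mix line with parity. The mean of Fert- was above that of Fert+ for 20 members in batch 1, 15 in batch 2, 16 in batch 3 and 21 in batch 4, which is 66.7%, 50%, 53.3% and 70% of the members. Of all eligible IDs, 50.3%, 40.3%, 54.6% and 64.3% were higher in Fert- in these batches, so the shares of members in batches 3 and 4 lay near the background. It was above in all 4 batches for 2 members, beside 8.02% of eligible IDs. Without Fert- replicate 14, a library of batch 1, the number in batch 1 was 15 (50%), beside 47.8% of eligible IDs, so that share lay near the background too. Replicate 14 was the highest of the 14 endometrium libraries for 12 members, where it was highest for 15.9% of eligible IDs. Fert+ replicate 1 was the lowest Fert+ library for 17 members, beside 35.2% of eligible IDs. The median difference of the members in mean log2(CPM + 1) was 0.09 with all libraries and 0.04 without Fert- replicate 14, where that of all eligible IDs was 0.02 in both. At parity 4 (3 libraries of each line) 25 members were higher in Fert-, beside 41.9% of eligible IDs, and at parity 3 (2 Fert- and 3 Fert+) 22 were, beside 67.8%. The Fert- libraries of parity 4 included replicate 14, and no count was made without it there. The Fert+ libraries of parity 3 included replicate 1. At neither parity were the lines matched in batch.

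**Figure D4:**
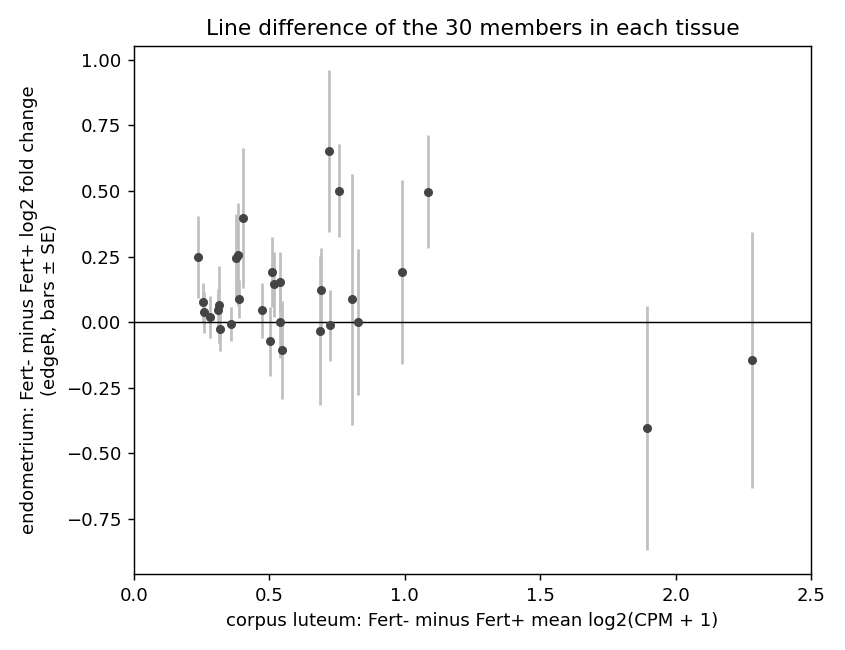
Each point is 1 of the 30 members. The x axis gives the difference Fert- minus Fert+ of the mean log2(CPM + 1) in corpus luteum, which chose the members, and the y axis the edgeR log2 fold change Fert- minus Fert+ in endometrium with its SE as a bar. All members lie right of 0 by choice, and in endometrium they run from -0.40 to 0.65 with 22 above 0, while the members ranked 1 and 4, farthest right, lie below 0.

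The member nearest to the threshold in endometrium was ENSBTAG00000012186. It was at 6.61 to 10.5 CPM in Fert+, with a median of 7.74, and at 7.89 to 18.3 CPM in Fert-, with a median of 11.1. The lines overlapped, and the highest value was that of Fert- replicate 14. The log2 fold change, Fert- minus Fert+, was 0.50 (SE 0.18, edgeR unadjusted p = 0.0149, adjusted p = 0.981), and over the alternatives the adjusted p ran from 0.760 to 1.00. Within batches 1 to 4 the difference of the mean log2(CPM + 1) was 0.78, 0.42, 0.02 and 0.60.

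ENSBTAG00000008683 came next. It was at 53.5 to 202 CPM in Fert+, with a median of 85.4, and at 101 to 181 CPM in Fert-, with a median of 140. Fert+ replicate 10 was the highest library of all, so the lines overlapped. The log2 fold change was 0.50 (SE 0.21, edgeR unadjusted p = 0.0392, adjusted p = 0.981, and 0.600 to 1.00 over the alternatives). Within batches 1 to 4 the difference was 0.24, 0.85, 0.26 and 1.25. These were the 2 members with a difference above 0 in each batch.

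Of the 8 members with a fold change below 0, the smallest p belonged to ENSBTAG00000011734, which was hardly expressed in endometrium. It was at 0.182 to 1.24 CPM in Fert+, with a median of 0.788, and at 0.0668 to 1.45 CPM in Fert-, with a median of 0.297, and its lowest count was 1 read. The log2 fold change was -0.40 (SE 0.47, edgeR adjusted p = 0.981, and 0.957 to 1.00 over the alternatives in which it was tested). It fell under the filter on low counts, and was not tested, without Fert+ replicate 2, 10, 12 or 13. Fert- replicate 11 was lowest and Fert- replicate 6 highest, so both ends of the range lay in the same line. ENSBTAG00000038139 was at 12.5 to 32.6 CPM in Fert+, with a median of 22.996, and at 17.7 to 24.95 CPM in Fert-, with a median of 21.3, so all Fert- libraries lay inside the Fert+ range. Its log2 fold change was -0.10 (SE 0.19, edgeR adjusted p = 0.981, and 0.854 to 1.00 over the alternatives). ENSBTAG00000027610, with the next largest gap in corpus luteum, had a log2 fold change of 0.12 (SE 0.16, edgeR adjusted p = 0.981, and 0.891 to 1.00 over the alternatives) in endometrium.

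Batch and co-variation were also described in endometrium. In the same edgeR fit, 0 of 30 members differed between batches at an adjusted p under 0.05 (lowest adjusted p 0.198), beside 0.0562% of tested IDs. At an unadjusted p under 0.05, 8 members did, beside 13.2% of tested IDs. DESeq2 and limma were not used for the batch term. The SD of a member over the 14 libraries had a median of 0.27 on the log2 scale, beside 0.24 over all eligible IDs. Over the 435 pairs of members, the correlation of log2(CPM + 1) across the 14 endometrium libraries had a median Pearson's r of 0.25, and 24.6% of pairs were above 0.5. For all pairs of eligible IDs the median was 0.06, and 10.3% of pairs were above 0.5. All pairs share libraries, depth and lines, so these values describe the libraries and were not tested.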

How the data were processed

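Per the labels' protocols, TRIzol RNA was made into TruSeq libraries of polyadenylated RNA, a kit that keeps no strand. STAR 2.3.0, featureCounts, Trim Galore, FastQC 0.10.0, CASAVA 1.9 and the build UMD3.1 are listed in the submitters' processing notes. Annotation release, strand setting and treatment of multimapping reads: not given in the sources used here. Overlapping, antisense or near-identical genes are therefore uncertain. The deposited files hold raw whole-number counts for 24616 gene IDs in each of 26 libraries, of which 4236 IDs had no count.

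CPM came from library totals, with a pseudocount of 1. TMM-scaled CPM used factors computed over all 26 libraries. The endometrium fit and principal component 1 each used factors computed within their own tissue. Endometrium was fitted alone in edgeR 4.0.16 (R 4.3.3): filterByExpr, TMM, a robust quasi-likelihood F test with batch and line, and Benjamini-Hochberg adjustment over 14243 IDs. SE is the fold change over the root of F. The script was tested on simulated data. Alternatives were DESeq2 1.42.0, limma 3.58.1, other scaling, filters, pseudocount and model terms, and leaving out libraries. The single-library share has a 95% Wilson interval for counting error only.

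The members and lists were chosen with earlier results of these data known. By rule, the IDs named were the 2 with the largest gap and the 2 with the smallest endometrial p in each direction. The members ranked 4, 8, 11, 12, 15, 25, 26, 29 and 30 were described after their values were seen. The same holds for the members that appear only among the flagged results below. With 0 symbols, 0 of the marker and pathway lists could be counted.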

Additional observations from a re-analysis of the deposited data

Results flagged for a closer look

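Listed here are libraries at the top or bottom of their group whose distance to the next library took up most of the spread of that group. This was looked for in 128 groups of values (30 members and 2 summaries in 4 groups of libraries), and 23 were found. For values not chosen by a rule, chance would give about 1 in 20, or 6.4. The rule chose the corpus luteum values and cut off the Fert- values from below. The number 6.4 is therefore not the one to expect here, and no excess is read from it. The values of 1 library move together, so the 23 are not independent.

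In corpus luteum, Fert- replicate 28 was highest in 7 of them. It was at 70.7 CPM for ENSBTAG00000011734 (next Fert- library 8.26), and at 1538 CPM for the member ranked 4 (next 41.6). It was at 45.8 CPM for the member ranked 5, 117 CPM for that ranked 13, 73.9 CPM for that ranked 16 and 30.5 CPM for that ranked 21, where the next libraries were at 36.0, 83.9, 34.8 and 25.2 CPM. The members took 1.65% of its counts (95% Wilson interval 1.64% to 1.66%, counting error only), and 1.25% in the next Fert- library. Fert- replicate 17 was highest for the members ranked 19, 24 and 29, at 10.8, 42.7 and 354 CPM, where the next were at 7.23, 29.1 and 239 CPM.

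In endometrium, Fert- replicate 14 was highest for the members ranked 7, 11, 17, 22, 24 and 29, at 143.8, 9.35, 27.3, 146.0, 58.2 and 244 CPM, where the next Fert- libraries were at 114.7, 4.99, 13.9, 91.4, 41.1 and 182 CPM. Fert+ replicate 1 was lowest in the median of the members (-0.42 relative to the endometrial mean on the log2 scale, next -0.11). The median of all eligible IDs was lowest there too (-0.18, next Fert+ library -0.0049). Replicate 1 was also lowest for the member ranked 14 (32.0 CPM, next 41.5), and highest for the member ranked 4 (82.4 CPM, next 34.0). For that member Fert- replicate 3 was also highest in its line (60.2 CPM, next 25.3). Single values stood apart in Fert- replicate 11 (314.9 CPM for the member ranked 12), in Fert- replicate 6 (214 CPM for the member ranked 13) and in Fert+ replicate 10 (16.5 CPM for the member ranked 27).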

How the results depend on the processing

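The count of 30 luteal members was within 1.5 times under a minimum of 1 CPM (39) or 10 CPM (24) and with no limit on the tissue ratio (30). It moved to 204 with TMM scaling, to 63 without Fert+ replicates 15, 16, 18 and 19, and to 604 without Fert+ replicates 21, 23 and 24. The opposite pattern, 289 in the main setting, then numbered 75, 391 and 3447. Leaving out 1 library gave 31 to 279 members, and 292 to 1094 IDs with the opposite pattern. The median member difference in corpus luteum, 0.51, was 0.71 with TMM scaling, 0.71 within batch 2, 0.34 within batch 3 and 0.37 without Fert+ replicates 15, 16, 18 and 19, and 0.46 to 0.55 with 1 library left out. The cause of these moves was not tested, except that fewer libraries loosen the rule. In endometrium the median member difference, 0.09, was -0.0044 within batch 2 and 0.04 to 0.12 with 1 library left out. No member passed an adjusted p of 0.05 in endometrium under any alternative run (0 in 6 other settings and 0 in 14 with 1 library left out, of which the 4 without Fert+ replicate 2, 10, 12 or 13 tested 29 members). The members at an unadjusted p under 0.05 and higher in Fert- numbered 1 with batch and parity in the model (1.78% of all tested IDs), and 1 to 3 with 1 library left out (0.958% to 3.61%). Those with a fold change above 0 numbered 20 to 22 in 6 other settings (49.2% to 51.2% of all tested IDs), and 19 to 25 with 1 library left out (47.3% to 51.2%), 19 without Fert- replicate 3 or 8 and 25 without Fert+ replicate 13. No paired analysis was possible because the 2 lines, which are the groups compared within each tissue, share no replicate numbers. Batch was a term of the endometrium model, and no test compared the tissues. Precision is limited by 5 to 8 libraries a group, and in endometrium by counts as low as 1.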
